A study of Homo sapiens with 10 samples.

Results

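Both groups of rescued neural progenitor cells were set against unedited cells, to describe what still differed from the unedited state, or went past it, after STAMBP or CFLAR had been given to STAMBP knockout cells. The libraries were chosen by their labels and number 6 of the 10 in the series. KO+STAMBP (2 libraries) is described as STAMBP knockout cells with added STAMBP. KO+CFLAR (2 libraries) is described as STAMBP knockout cells with added CFLAR. WT (2 libraries) is the unedited reference with neither the knockout nor a construct. Every library, of whichever group, was made from neural progenitor cells (NPCs) of H1, a widely used human embryonic stem cell line. STAMBP is a deubiquitinase of the endosomal sorting machinery, and CFLAR is an inhibitor of caspase-8 activation. Both rescue groups share the knockout background, and whether KO1 or KO2 received a construct, how it was delivered and whether a group is 1 clone are not labelled. The 4 libraries of KO1 and KO2 give levels beside the comparison. Whether libraries within a group come from separate cultures is not labelled. The p-values therefore measure the spread among these libraries alone, and that spread may be technical. In bulk RNA, fewer cells of a type and less RNA per cell cannot be told apart.

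In the developing cortex, radial glia divide at the ventricle and give rise to intermediate progenitors and then to neurons. Fibroblast growth factors (FGFs) bind receptor tyrosine kinases, which act through the MAPK cascade to induce ETS transcription factors and a set of feedback inhibitors of the Sprouty, SPRED and DUSP families, and FGF signalling is known to pattern the rostral forebrain and to hold radial glia in the progenitor state. At the opposite, dorsomedial edge of the cortical field, the cortical hem releases WNT and BMP proteins and borders the choroid plexus, the epithelium that makes cerebrospinal fluid.

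The targeted genes were examined first. Levels are TMM-scaled CPM, the counts of a gene per 1000000 counts of its library, from 16495116 to 20832700 counts per library. STAMBP (ENSG00000124356, chromosome 2, 73828916 to 73873659, GRCh38) was at 40.4 and 45.3 CPM in KO+STAMBP, 42.9 and 40.0 CPM in the libraries labelled KO+CFLAR, and 43.4 and 47.2 CPM in WT, against 18.6 ± 1.19 CPM in the knockout libraries (SD, n = 4). These values overlap between the rescues and WT, and the log2 difference between both rescues and WT was -0.11 ± 0.07 (SE, adjusted p = 0.252). CFLAR (ENSG00000003402, chromosome 2, 201116104 to 201176687) was at 32.1 and 32.1 CPM in KO+STAMBP, 31.3 and 29.4 CPM in the libraries labelled KO+CFLAR, and 34.2 and 30.4 CPM in WT, against 254 ± 8.11 CPM in the knockout, and its difference from WT was -0.04 ± 0.06 (SE, adjusted p = 0.64). In CFLAR the libraries labelled KO+CFLAR were not above WT, and in STAMBP they were not at the low level of the knockout, so these levels go against that label. Whether reads of either construct were counted is not known, and every direction below rests on the labels. For this reason values are given for each rescue, and the counts that lead the account were repeated without the libraries labelled KO+CFLAR.

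The libraries carried the transcripts of neural progenitors that their labels name. PAX6 was at 188 to 196 CPM in the rescue libraries and at 181 and 182 CPM in WT, SOX2 at 188 to 192 CPM in the rescue libraries and at 297 and 297 CPM in WT, and NES at 466 to 488 CPM in the rescue libraries and at 771 and 777 CPM in WT. Mitochondrial transcripts held 4.60 to 5.06% of counts in the rescues, 3.39 to 3.69% in the knockout and 4.25 to 4.40% in WT. In a principal component analysis of the 6 libraries, PC1 took up 81.4% of the variance, with the rescues at -18.3 to -17 and WT at 34.7 and 36.2.

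Of 21063 genes tested in edgeR's quasi-likelihood model, 8114 differed between both rescues and WT at an adjusted p under 0.05 (38.5%), of which 3785 were higher (18%) and 4329 lower (20.6%) in the rescues. That balance depended on the scaling, since with library size alone 4236 genes were higher and 3942 lower. Genes that changed at least 2-fold numbered 743 higher (3.53%) and 818 lower (3.88%), so most differences were small. The 4 rescue libraries did not overlap the 2 WT libraries for 51.7% of the tested genes. That share is the background for each statement below that the rescues do not overlap WT. No such share was computed for the knockout libraries, and the rescues were not tested against them. Where a rescue lies above or below the knockout, levels alone are given. The median log2 difference of all tested genes was 0.00. KO+STAMBP alone differed from WT at 7354 genes (34.9%), and the libraries labelled KO+CFLAR at 7104 (33.7%). These comparisons share the WT libraries, so their values are only set side by side. The rescue groups differed from each other at 229 genes (1.09%), of which 0.627% of tested genes were higher and 0.461% lower in the libraries labelled KO+CFLAR. The knockout, against the same WT libraries, differed at 76.2% of genes, 36.8% higher and 39.4% lower.

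Lists of genes with a shared role were read against the shares of all tested genes, 18% higher and 20.6% lower. The plot of list shares shows lists far from this background on both sides. Lower in the rescues were 23 of 33 radial glia genes, 33 of 34 cell cycle genes and 11 of 16 FGF-MAPK feedback inhibitors. Higher were 23 of 33 genes of intermediate progenitors and neurogenic factors, 23 of 30 of neuron structure, 24 of 31 of synapse and excitability, 24 of 32 of the cortical hem and choroid plexus, and 13 of 25 of epithelium. With the libraries labelled KO+CFLAR left out of the fit, 16.7% of all genes were higher and 19.2% lower. It called 23 radial glia, 33 cell cycle and 10 feedback inhibitor genes lower, and 22 neurogenic, 23 neuron structure, 22 synapse, 23 cortical hem and 13 epithelial genes higher.

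**Figure D1:**
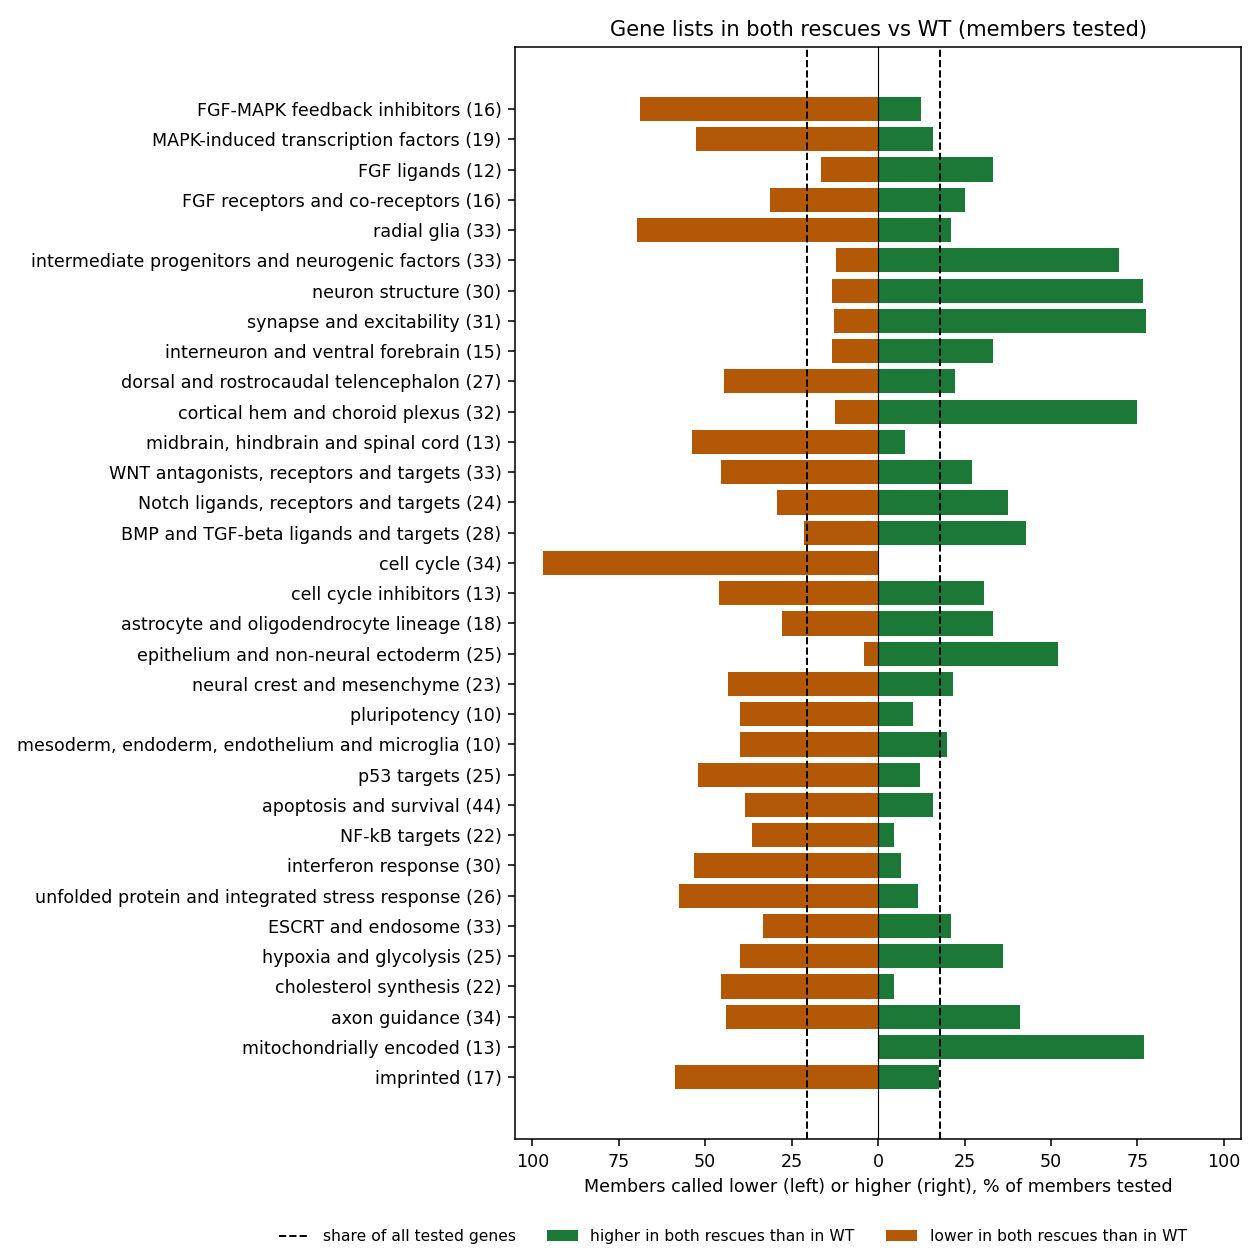
Share of the tested members of each gene list that were called lower (left) or higher (right) in both rescues than in WT, in %, with the number of members tested in brackets. Dashed lines mark the shares among all tested genes, 20.6% lower and 18% higher. The cell cycle, radial glia and feedback inhibitor bars reach furthest to the left of the 20.6% line, and the neuron, synapse and cortical hem bars, with the small mitochondrially encoded list (called higher mostly in KO+STAMBP), reach furthest to the right.

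Feedback inhibitors of FGF and MAPK signalling were far below WT in both rescues. Of 16 tested, 2 rose and 11 fell, and 3 were not called (median log2 difference -0.9997, against 0.00 for all genes). SPRY4 (ENSG00000187678, chromosome 5, 142310427 to 142326455), which restrains receptor tyrosine kinase signalling, was at 5.78 and 5.72 CPM in KO+STAMBP, 5.17 and 4.99 CPM in the libraries labelled KO+CFLAR, and 356 and 355 CPM in WT. All 4 rescue libraries were also below the knockout, which was at 34.2 ± 1.44 CPM (n = 4). SPRY4 was 65.7-fold lower in both rescues than in WT (log2 -6.04 ± 0.05, SE, adjusted p = 1.45e-17). DUSP6 (ENSG00000139318, chromosome 12, 89347232 to 89353271), a phosphatase that inactivates ERK, was at 29.8 and 29.6 CPM in KO+STAMBP, 24.5 and 21.3 CPM in the libraries labelled KO+CFLAR, and 402 and 406 CPM in WT. Neither rescue overlapped WT or the knockout, at 172 ± 8.57 CPM, and the difference from WT was 15.5-fold (log2 -3.95 ± 0.05, SE, adjusted p = 1.41e-15). SPRY1 and SPRY2 encode Sprouty proteins like SPRY4. SPRY1 was at 37.4 and 38.4 CPM in KO+STAMBP, 34.4 and 32 CPM in the libraries labelled KO+CFLAR, and 251 and 247 CPM in WT, and the knockout was lower still at 21.4 ± 0.995 CPM. SPRY2 was at 35.8 and 40.1 CPM in KO+STAMBP, 33.4 and 34.4 CPM in the libraries labelled KO+CFLAR, and 242 and 239.8 CPM in WT, and the knockout lay between at 60.0 ± 1.32 CPM. Against WT they fell by 2.81 ± 0.04 and 2.75 ± 0.04 on the log2 scale (SE, adjusted p = 5.24e-15 and 7.4e-15).

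The other inhibitors that fell did so less. DUSP4, a nuclear MAPK phosphatase, was at 118 ± 5.75 CPM in the rescues and 359 ± 16 CPM in WT (SD, n = 4 and 2), a log2 difference of -1.60 ± 0.04 (SE, adjusted p = 5.96e-13). SPRED1, SPRED2 and SPRED3, which hold RAF inactive, differed by -1.14, -1.15 and -0.94. IL17RD, an FGF receptor antagonist, differed by -1.06, and ERRFI1, an inhibitor of EGF receptors, by -0.92. SPRY3 differed by -0.43 ± 0.14 (SE, adjusted p = 0.0249), a call lost without the libraries labelled KO+CFLAR (adjusted p = 0.0883). DUSP7 and FGFRL1, a receptor without a kinase domain, were the members that rose, by 0.30 and 0.27. FGFRL1 was not called without the libraries labelled KO+CFLAR either (adjusted p = 0.0798). DUSP5, PHLDA1 and RASA1 did not pass the test, with log2 differences of 0.04, 0.03 and -0.06. DUSP5, which is known as an ERK phosphatase, was at 15.3 to 17.8 CPM in the rescue libraries and at 18.2 and 14.3 CPM in WT, overlapping, against 174 ± 5.93 CPM in the knockout.

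Among 19 tested transcription factors induced by MAPK signalling, 3 rose and 10 fell, and 6 were not called (median -0.47). The FGF-induced ETS factors ETV4 and ETV5 had the largest falls. ETV4 (ENSG00000175832, chromosome 17, 43527844 to 43579620) was at 4.9 and 4.97 CPM in KO+STAMBP, 2.89 and 5.31 CPM in the libraries labelled KO+CFLAR, and 142 and 149.9 CPM in WT, against 45.7 ± 0.576 CPM in the knockout. It was 32.4-fold lower in the rescues than in WT (log2 -5.02 ± 0.09, SE, adjusted p = 3.75e-14). ETV5 (ENSG00000244405, chromosome 3, 186046308 to 186110318) was at 18.9 and 17.1 CPM in KO+STAMBP, 15.6 and 14.7 CPM in the libraries labelled KO+CFLAR, and 274 and 277 CPM in WT, against 38.9 ± 0.742 CPM in the knockout, a 16.7-fold lower level than WT (log2 -4.06 ± 0.04, SE, adjusted p = 2.96e-16). For both genes every rescue library was below every knockout and WT library. ETV1, of the same ETS subfamily, was at 109 ± 5.37 CPM in the rescues and 317 ± 3.28 CPM in WT (SD, n = 4 and 2) and fell by 1.54 ± 0.04 on the log2 scale, while the knockout was at 22.1 ± 1.83 CPM. ELK3, also on the list, was at 4.95 ± 0.569 CPM in the rescues and 15.5 ± 2.06 CPM in WT (SD, n = 4 and 2). It fell by 1.64 ± 0.10 on the log2 scale (SE, adjusted p = 9.81e-09), while the knockout was at 214 ± 5.56 CPM. Immediate early genes were less changed. EGR1 and FOS differed from WT by -1.29 and -1.04, MYC by -0.38, and JUN did not pass the test (-0.02 ± 0.04, SE, adjusted p = 0.664). FOSL2, an AP-1 subunit, rose to 9.44 ± 1.39 CPM in the rescues, against 3.84 ± 0.17 CPM in WT, with the knockout far above both at 317 ± 4.51 CPM.

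The promoters of the 4 feedback inhibitors with the largest falls are shown because these genes moved together and because ETS factors, which ETV4 and ETV5 belong to, bind GGAA-containing sites. Each sequence is the 250 bases before the RefSeq start on GRCh38.p14, 5′ to 3′ on the gene's strand, with CCGGAA or its reverse complement TTCCGG in capitals. The windows are chr5:142324248-142324497 for SPRY4 on the minus strand, chr12:89352502-89352751 for DUSP6 on the minus strand, chr4:123398136-123398385 for SPRY1 on the plus strand and chr13:80341127-80341376 for SPRY2 on the minus strand. Where a gene has several starts, one with a match is shown if there is any.
SPRY4: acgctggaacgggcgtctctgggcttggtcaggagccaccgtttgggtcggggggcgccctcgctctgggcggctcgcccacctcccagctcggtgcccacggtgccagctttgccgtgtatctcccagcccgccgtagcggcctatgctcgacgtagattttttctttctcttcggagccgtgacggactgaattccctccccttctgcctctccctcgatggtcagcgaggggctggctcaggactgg
DUSP6: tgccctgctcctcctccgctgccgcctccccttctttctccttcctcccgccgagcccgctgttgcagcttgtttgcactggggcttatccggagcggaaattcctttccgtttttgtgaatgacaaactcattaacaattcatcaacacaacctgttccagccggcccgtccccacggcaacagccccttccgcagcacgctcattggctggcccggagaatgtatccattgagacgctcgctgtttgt
SPRY1: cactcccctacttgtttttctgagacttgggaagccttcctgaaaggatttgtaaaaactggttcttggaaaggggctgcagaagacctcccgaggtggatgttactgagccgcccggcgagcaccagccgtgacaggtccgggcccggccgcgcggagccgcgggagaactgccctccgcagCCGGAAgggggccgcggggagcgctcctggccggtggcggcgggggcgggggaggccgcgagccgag
SPRY2: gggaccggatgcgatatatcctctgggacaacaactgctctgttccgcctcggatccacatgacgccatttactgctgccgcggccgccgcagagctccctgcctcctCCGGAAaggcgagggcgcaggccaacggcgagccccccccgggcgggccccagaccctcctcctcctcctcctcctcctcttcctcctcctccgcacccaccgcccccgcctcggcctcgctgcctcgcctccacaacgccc
The windows shown for SPRY1 and SPRY2 hold 1 match each, and the windows of SPRY4 and DUSP6, the genes that fell most, hold 0. SPRY1 had 2 windows to choose from and SPRY2 had 3, against 1 each for SPRY4 and DUSP6, so the genes are not on equal terms. The shorter GGAA, which the SPRY4 and DUSP6 windows also hold, was not counted. Of the 21 members of the feedback and transcription factor lists that fell, 16 have a promoter entry, and 4 of these (SPRY1, SPRY2, ETV1 and IER2) hold a match in at least 1 window. Among all 27305 genes with an entry, 17.2% do, and of all 35116 windows 14.5% do. A match is a description of letters and does not show binding.

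Receptors of FGFs moved in opposite directions. FGFR1 (ENSG00000077782, chromosome 8, 38400215 to 38468834), a receptor that radial glia use, was at 135 and 136 CPM in KO+STAMBP, 125 and 130.0 CPM in the libraries labelled KO+CFLAR, and 425 and 416 CPM in WT. Both rescues were below WT and above the knockout, which was at 84.7 ± 1.86 CPM, and the difference from WT was 3.19-fold (log2 -1.68 ± 0.03, SE, adjusted p = 3.11e-14). FGFR2 (ENSG00000066468, chromosome 10, 121478334 to 121598458) was at 109 and 109 CPM in KO+STAMBP, 113 and 110.0 CPM in the libraries labelled KO+CFLAR, and 22.1 and 23.2 CPM in WT. It was 4.85-fold higher than WT (log2 2.28 ± 0.06, SE, adjusted p = 9.3e-13), while the knockout was at 15.6 ± 1.06 CPM, below WT. FGFR3 was at 18.6 ± 0.942 CPM in the rescues and 5.23 ± 0.754 CPM in WT (SD, n = 4 and 2), 3.57-fold higher (log2 1.84 ± 0.10, SE, adjusted p = 2.21e-09), and the knockout was higher still at 37 ± 1.17 CPM. FGFR4 did not pass the test (0.62 ± 0.31, SE, adjusted p = 0.137). FGFBP3, a secreted FGF-binding protein, and GAB1, an adaptor of the receptors, fell by 1.85 and 0.96. FRS2 and GRB2, adaptors that link the receptors to RAS, did not pass the test. Of 16 tested receptors, co-receptors and adaptors, 4 rose and 5 fell, and 7 were not called.

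Of 18 listed FGF genes 12 were tested, and 4 rose and 2 fell. FGF8, a patterning signal of the rostral forebrain, was among the 6 that the filter on low counts removed. Those that rose were FGF9, a secreted ligand, at 29.3 ± 2.06 CPM in the rescues and 20.1 ± 2.39 CPM in WT (SD, n = 4 and 2), and FGF11, FGF12 and FGF13, intracellular FGF homologues of neurons, with log2 differences of 0.80, 0.59 and 0.94. The knockout was below WT for FGF9, FGF12 and FGF13, at 1.47, 3.25 and 7.34 CPM. For FGF11 the knockout was highest, at 41.1 CPM, against 10.4 CPM in the rescues and 5.94 CPM in WT. FGF2, the ligand commonly used to maintain progenitors in culture, was at 19.5 ± 0.582 CPM in the rescues and 24.8 ± 2.02 CPM in WT (log2 -0.34 ± 0.07, SE, adjusted p = 0.000812), against 86.1 ± 3.26 CPM in the knockout. FGF19 differed by -1.27 ± 0.35 (SE, adjusted p = 0.0103), a call lost without the libraries labelled KO+CFLAR (adjusted p = 0.0647).

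**Figure D2:**
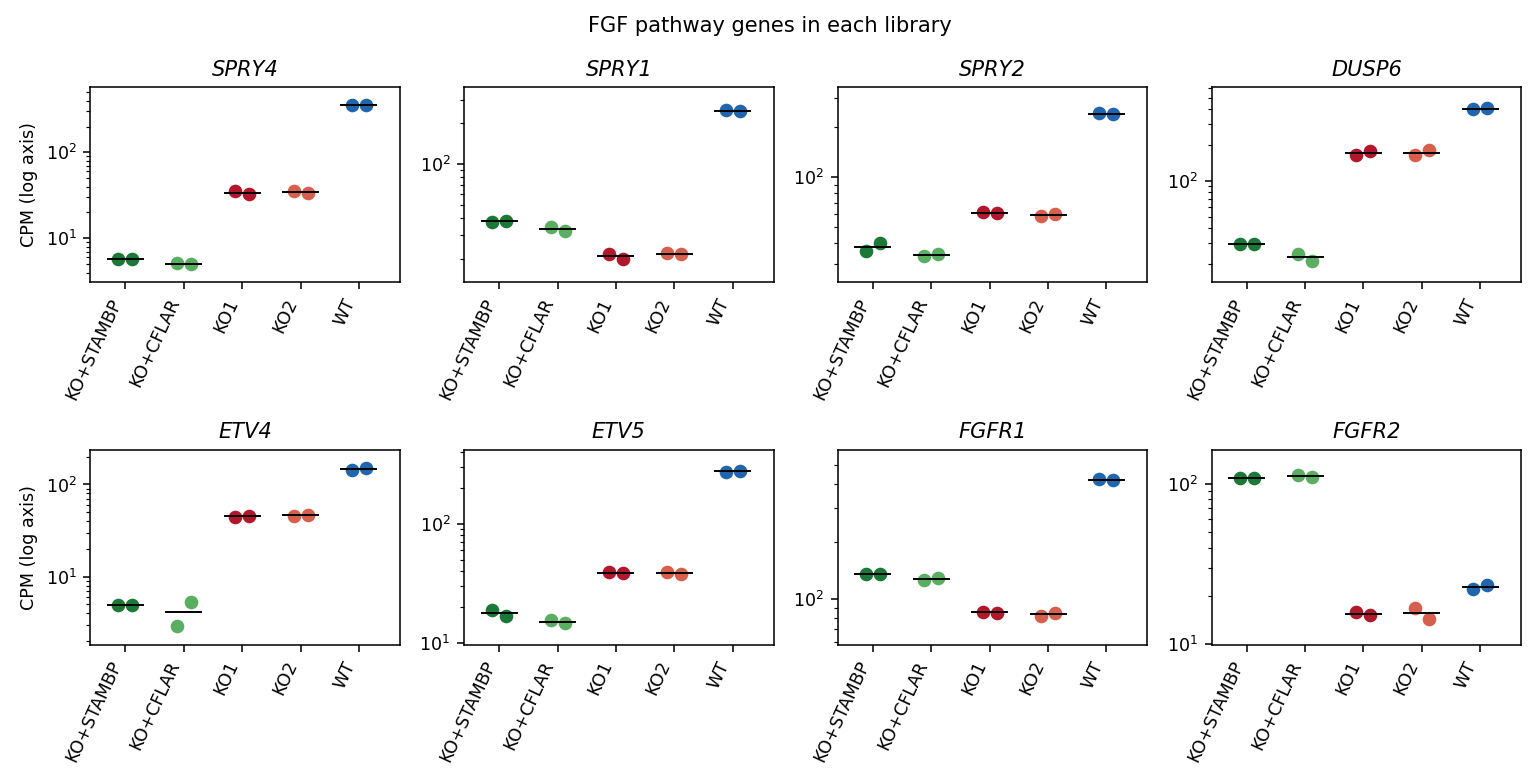
Level of 8 FGF pathway genes in each of the 10 libraries, in CPM on a log axis whose range differs between panels. Points are libraries and bars are group means (n = 2). The Sprouty genes, DUSP6, ETV4, ETV5 and FGFR1 lie far below WT in the 4 rescue libraries, SPRY4, SPRY2, DUSP6, ETV4 and ETV5 also below the knockout lines, and FGFR2 lies far above both.

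Radial glia transcripts were the main group of progenitor genes that stayed below WT. Of 33 tested, 7 rose and 23 fell, and 3 were not called (median -0.64). Their summed level was 7713 to 8131 CPM in the rescue libraries, 5127 to 5201 CPM in the knockout libraries and 14240.0 and 14256 CPM in WT. MOXD1, a monooxygenase-related marker of outer radial glia, was at 5.26 and 5.61 CPM in KO+STAMBP, 8.48 and 8.66 CPM in the libraries labelled KO+CFLAR, and 124 and 133 CPM in WT. It was 18.8-fold lower than WT (log2 -4.24 ± 0.06, SE, adjusted p = 3.59e-15) and also below the knockout, at 56.7 ± 2.88 CPM. TNC, the matrix protein tenascin-C of the radial glia niche, was at 125 and 123 CPM in KO+STAMBP, 142 and 141 CPM in the libraries labelled KO+CFLAR, and 689 and 669 CPM in WT, against 525 ± 12.3 CPM in the knockout. The TNC difference from WT was 5.12-fold (log2 -2.36 ± 0.03, SE, adjusted p = 8.69e-16), with no overlap. FABP7, a brain lipid-binding protein, was at 231 and 226 CPM in KO+STAMBP, 238 and 243 CPM in the libraries labelled KO+CFLAR, and 1095 and 1153 CPM in WT. The knockout held 0.446 ± 0.238 CPM, so the rescues lay between knockout and WT, 4.79-fold below WT. PTN, the growth factor pleiotrophin, and SLC1A3, a glial glutamate transporter, were 4.63-fold and 3.53-fold lower than WT (adjusted p = 8.93e-15 and 8.51e-15). Among members chosen after their values were seen, HOPX, a further outer radial glia marker, differed by -2.91, and LIFR, the LIF receptor, by -2.27.

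The fall was not shared by every progenitor gene. PAX6 and HES1, transcription factors of radial glia, did not pass the test (adjusted p = 0.0953 and 0.975). SOX2 and NES, general progenitor markers, differed by -0.64 and -0.70, less than SOX1 and SOX9 at -1.33 and -1.37. The 7 members that rose were ID4 (0.93), HEY1 (0.90), DACH1 (0.80), SFRP1 (0.61), HES5 (0.51), FAM107A (0.35) and CLU (0.30), of which ID4, HEY1 and HES5 are transcriptional regulators downstream of BMP or Notch signals. ID4 was at 428 ± 28.6 CPM in the rescues and 224 ± 1.68 CPM in WT (SD, n = 4 and 2), against 25.1 ± 1.95 CPM in the knockout. The members named in these sentences, ID4 apart, were chosen after their values were seen.

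Genes of the step from progenitor to neuron went past WT. Of 33 genes of intermediate progenitors and neurogenic factors, 23 rose and 4 fell, and 6 were not called (median 0.73). NEUROD6 (ENSG00000164600, chromosome 7, 31337461 to 31340894), a transcription factor of cortical projection neurons, was at 680.1 and 657 CPM in KO+STAMBP, 594 and 593 CPM in the libraries labelled KO+CFLAR, and 146 and 153 CPM in WT. The 4 knockout libraries held 1 count in all. NEUROD6 was 4.2-fold higher than WT (log2 2.07 ± 0.04, SE, adjusted p = 2.13e-13). NEUROD2, of the same family, was at 365 and 380.0 CPM in KO+STAMBP, 389.8 and 370.4 CPM in the libraries labelled KO+CFLAR, and 115 and 129 CPM in WT, 3.08-fold higher (log2 1.62 ± 0.05, SE, adjusted p = 3.92e-12). BCL11A and BCL11B, zinc finger factors of cortical projection neurons, were 3.45-fold and 2.41-fold higher. LMO3, a LIM-domain cofactor, was at 448 ± 60.9 CPM in the rescues and 241 ± 5.73 CPM in WT (SD, n = 4 and 2), with the libraries labelled KO+CFLAR above KO+STAMBP. EOMES, the defining transcription factor of intermediate progenitors, was at 106 and 106 CPM in KO+STAMBP, 124 and 126 CPM in the libraries labelled KO+CFLAR, and 62.5 and 63.1 CPM in WT, a log2 difference of 0.88 ± 0.04 (SE, adjusted p = 5.22e-10). Every rescue library was above both WT libraries for each of these genes.

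Further members of this list were chosen after their values were seen. NEUROG2, the proneural factor of cortical progenitors, rose by 1.22 ± 0.05 and TBR1, a factor of deep-layer neurons, by 0.73 ± 0.04 (log2, SE). NEUROD1, of the same family as NEUROD2, did not pass the test (0.19). Members that fell included POU3F2 (-0.70), POU3F3 (-0.67) and CUX1 (-0.30). POU3F2 and POU3F3 are POU factors of upper-layer production, and CUX1 marks upper layers.

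Neuronal transcripts were higher than WT in most cases. Of 30 neuron structure genes 23 rose and 4 fell (median 0.50), and of 31 genes of synapse and excitability 24 rose and 4 fell (median 0.60). MAPT, the axonal microtubule protein tau, was at 472 ± 10.3 CPM in the rescues and 245 ± 11.6 CPM in WT, TUBB3, a neuronal tubulin, at 1056 ± 15.6 CPM in the rescues and 658 ± 4.36 CPM in WT, and STMN2, a growth cone protein, at 648 ± 17.5 CPM in the rescues and 356 ± 10.2 CPM in WT (SD, n = 4 and 2). SLC17A7, the vesicular glutamate transporter of cortical neurons, was at 126 and 128 CPM in KO+STAMBP, 128 and 126 CPM in the libraries labelled KO+CFLAR, and 49.2 and 51.1 CPM in WT. It was 2.53-fold higher than WT (log2 1.34 ± 0.04, SE, adjusted p = 1.23e-11), with no overlap, and the knockout held 0.335 ± 0.0421 CPM. CACNA1A, a presynaptic calcium channel, was 2.4-fold higher, and SYT1, the calcium sensor of vesicle release, was 1.78-fold higher. SNAP25, a part of the vesicle release machinery, went the other way, at 235 and 225 CPM in KO+STAMBP, 203 and 219.8 CPM in the libraries labelled KO+CFLAR, and 358 and 368 CPM in WT (log2 -0.72 ± 0.04, SE, adjusted p = 1.32e-09). The other members that fell, chosen after their values were seen, were GRIA4 (-1.12), RIMS1 (-0.82), RIMS2 (-0.53), CNTN2 (-0.71), NEFL (-0.57), KIF5C (-0.49) and NEFM (-0.37), among them the neurofilaments NEFL and NEFM. SCN1A, a sodium channel of mature neurons, was outside the lists and was at 11.1 and 12.8 CPM in KO+STAMBP, 18.3 and 13.1 CPM in the libraries labelled KO+CFLAR, and 129 and 117 CPM in WT, 8.98-fold lower than WT (log2 -3.17 ± 0.10, SE, adjusted p = 8.07e-12).

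**Figure D3:**
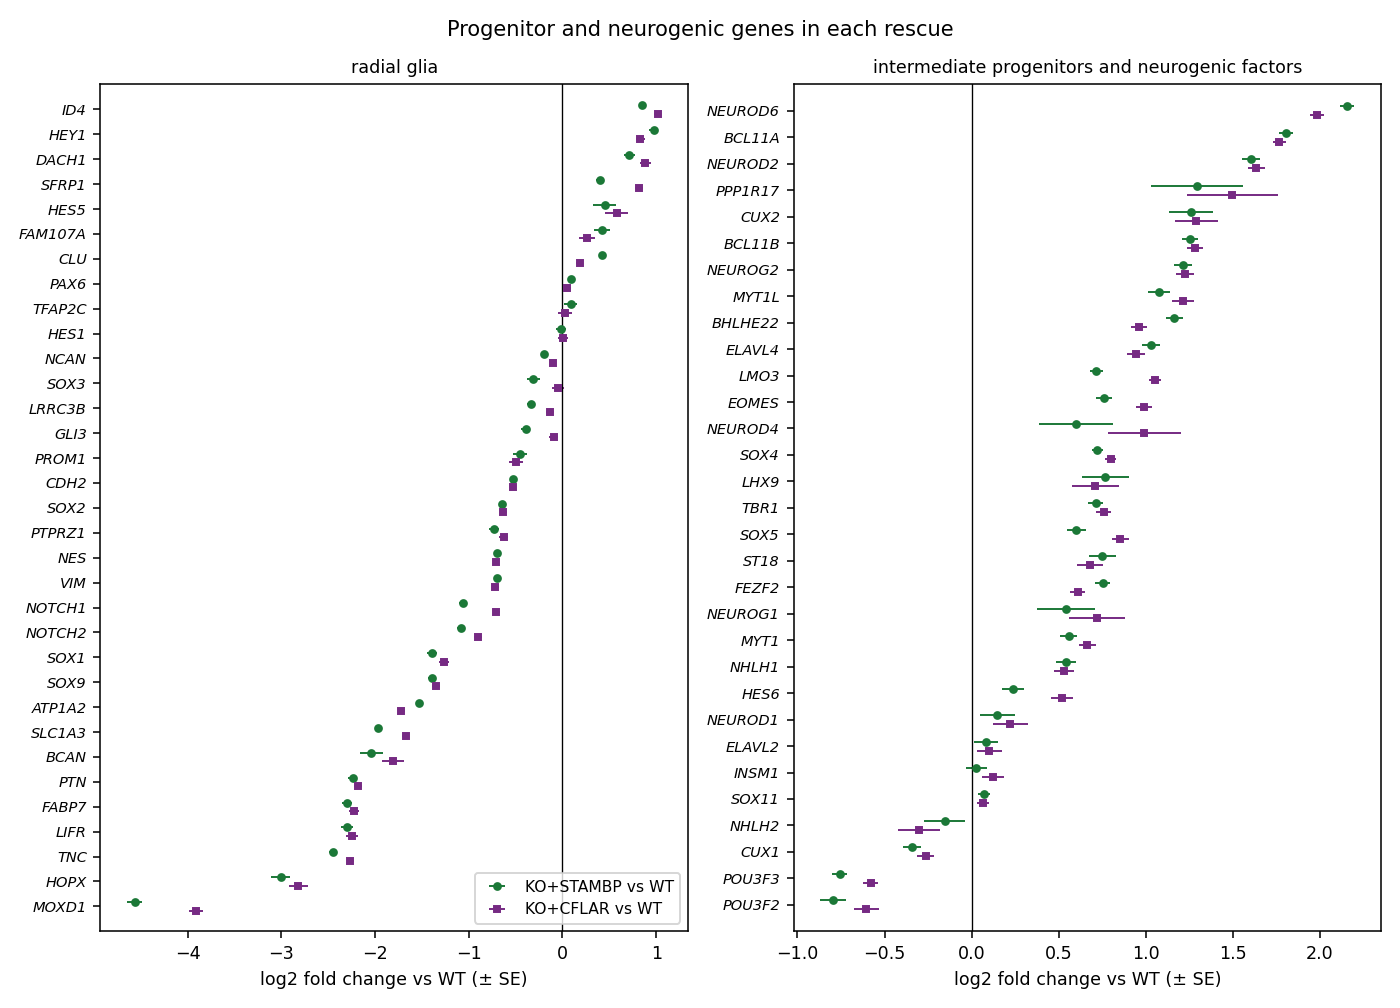
Log2 fold change against WT (± SE) of tested radial glia genes (left panel) and genes of intermediate progenitors and neurogenic factors (right panel), ordered by the mean of both rescues. Circles are KO+STAMBP and squares the libraries labelled KO+CFLAR, n = 2 each against 2 WT libraries. Of 33 radial glia genes 23 were called lower and of 33 neurogenic genes 23 were called higher, and the markers of the rescues lie close together for most genes.

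Cell cycle genes stayed below WT. Of 34 tested, 33 fell and 0 rose (median -0.67), and CCND3 alone was not called. Their summed level was 2439 to 2752 CPM in the rescue libraries, 1796 to 1833 CPM in the knockout libraries and 3987 and 4014 CPM in WT. MKI67, a marker of cycling cells, was at 170.2 and 160.5 CPM in KO+STAMBP, 212 and 203 CPM in the libraries labelled KO+CFLAR, and 392 and 372 CPM in WT (log2 -1.04 ± 0.04, SE, adjusted p = 1.21e-10). RRM2 and TYMS, enzymes of nucleotide synthesis, were 2.13-fold and 1.86-fold lower, and TOP2A and TPX2, of chromosome segregation, 1.7-fold and 1.64-fold lower. For MKI67 and TOP2A the libraries labelled KO+CFLAR lay between KO+STAMBP and WT. Cell cycle inhibitors were not higher as a group: of 13, 4 rose and 6 fell. CDKN1A, the p53-induced inhibitor p21, was at 36 ± 4.77 CPM in the rescues and 60.3 ± 2.85 CPM in WT (SD, n = 4 and 2), against 1635 ± 20.1 CPM in the knockout. BTG1, an antiproliferative gene, was at 74.5 ± 2.6 CPM in the rescues and 58.2 ± 3.94 CPM in WT.

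Genes of the cortical hem and choroid plexus were higher than WT. Of 32 tested, 24 rose and 4 fell, and 4 were not called (median 1.55, the highest median of the 33 lists). Their summed level was 1464 to 1619 CPM in the rescue libraries, 406 to 423 CPM in the knockout libraries and 988 and 996 CPM in WT. TTR (ENSG00000118271, chromosome 18, 31557010 to 31599021), the thyroid hormone carrier transthyretin that choroid plexus epithelium secretes, was at 328 and 332 CPM in KO+STAMBP, 288 and 297 CPM in the libraries labelled KO+CFLAR, and 19.9 and 18.3 CPM in WT. It was 16.3-fold higher than WT (log2 4.02 ± 0.05, SE, adjusted p = 8.93e-15), and the 4 knockout libraries held 1 count in all. RSPO2 (ENSG00000147655, chromosome 8, 107899316 to 108083648) and RSPO1, secreted enhancers of WNT signalling, followed. RSPO2 was at 142 and 143 CPM in KO+STAMBP, 122 and 121 CPM in the libraries labelled KO+CFLAR, and 18.3 and 19.4 CPM in WT, 6.96-fold higher (log2 2.80 ± 0.06, SE, adjusted p = 1.57e-13). RSPO1 was at 74.4 and 74.2 CPM in KO+STAMBP, 56.5 and 53.2 CPM in the libraries labelled KO+CFLAR, and 10.2 and 10.3 CPM in WT, 6.24-fold higher (log2 2.64 ± 0.09, SE, adjusted p = 1.17e-10), with KO+STAMBP above the libraries labelled KO+CFLAR. MSX1, a homeobox gene induced by BMPs, was at 8.46 and 7.22 CPM in KO+STAMBP, 6.15 and 7.57 CPM in the libraries labelled KO+CFLAR, and 0.815 and 0.733 CPM in WT (log2 3.24 ± 0.29, SE, adjusted p = 5.54e-07). CALB2, calretinin, was at 89.7 ± 8.94 CPM in the rescues and 24.7 ± 1.66 CPM in WT (SD, n = 4 and 2), and LMX1A, a transcription factor of the hem and roof plate, at 18 ± 3.11 CPM in the rescues and 6.25 ± 0.542 CPM in WT. No rescue library overlapped WT for these 6 genes.

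Ligands of the hem chosen after their values were seen were higher too, with log2 differences of 2.89 for WNT3A, 2.17 for WNT2B, 1.98 for WNT8B, 1.98 for RSPO3, 2.17 for BMP6 and 1.62 for GDF7. Choroid plexus genes among them were FOLR1, a folate receptor (2.40), HTR2C, a serotonin receptor (2.06), AQP1, a water channel (1.33), and KCNJ13, a potassium channel (1.00). The list did not move as one. BMP7, a ligand of the dorsal midline, was at 68 and 70.2 CPM in KO+STAMBP, 61 and 65.1 CPM in the libraries labelled KO+CFLAR, and 203 and 206 CPM in WT, 3.09-fold lower than WT (log2 -1.63 ± 0.04, SE, adjusted p = 5.94e-13). The other members that fell were BMP4, DKK3 and WNT7B, by 0.90, 0.72 and 0.66. Likewise chosen after their values were seen, RELN, made by Cajal-Retzius cells that leave the hem, rose by 0.36 ± 0.06, and TP73, of the same cells, did not pass the test (0.56 ± 0.24, SE, adjusted p = 0.0816).

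Transcription factors that pattern the telencephalon fell more often than they rose. Of 27 tested, 6 rose (22.2%, against 18% of all tested genes) and 12 fell (44.4%, against 20.6%). The other 9 were not called (median -0.04). The share that rose was thus near that of all genes. The ZIC genes, zinc finger factors of the rostral and dorsal forebrain, were lower. ZIC1 was at 89.7 and 96 CPM in KO+STAMBP, 79.6 and 79.1 CPM in the libraries labelled KO+CFLAR, and 218 and 219 CPM in WT, 2.54-fold lower than WT (log2 -1.35 ± 0.04, SE, adjusted p = 7.31e-12), with the knockout at 1.68 ± 0.369 CPM. No rescue library overlapped WT. ZIC5 and ZIC2 were 1.84-fold and 1.73-fold lower. SP8, a factor of the rostral cortex, was at 52.2 and 53.2 CPM in KO+STAMBP, 56 and 55 CPM in the libraries labelled KO+CFLAR, and 133 and 132 CPM in WT (log2 -1.29 ± 0.04, SE, adjusted p = 2.58e-11), above 39.5 ± 2.69 CPM in the knockout. Chosen after their values were seen, RAX and OTX1 differed by -0.92 and -0.87. The 6 members that rose, chosen in the same way, include NR2F2 (COUP-TFII), a factor of the caudal and medial cortex, at 0.80 ± 0.05, DMRT3, of the medial cortex, at 0.89 ± 0.10, and OTX2 and LHX5, of the hem region, at 0.67 ± 0.05 and 0.87 ± 0.21 (log2, SE). EMX1, a general factor of the cortex, rose by 0.30, while NR2F1, LHX2 and PAX6 did not pass the test.

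Genes of more caudal brain regions were scarce. Of 30 listed, 13 were tested, none of them a HOX gene, and 1 rose and 7 fell (median -0.88, summed level 33.5 to 40.8 CPM in the rescue libraries, 56.9 to 61.5 CPM in the knockout libraries and 54.5 and 57.1 CPM in WT). GBX2, a homeobox gene that in the mouse depends on FGF signals in the anterior hindbrain, was at 0.309 and 0.909 CPM in KO+STAMBP, 0.233 and 0.454 CPM in the libraries labelled KO+CFLAR, and 10.7 and 12 CPM in WT. All 4 rescue libraries were near the knockout level of 0.479 ± 0.298 CPM, and GBX2 was 24.6-fold lower than WT (log2 -4.62 ± 0.36, SE, adjusted p = 1.2e-07). EN2, a homeobox gene of the midbrain-hindbrain boundary, was at 0.361 and 1.07 CPM in KO+STAMBP, 0.932 and 1.04 CPM in the libraries labelled KO+CFLAR, and 5.47 and 4.21 CPM in WT (log2 -2.52 ± 0.33, SE, adjusted p = 2.97e-05). The only member that rose was LMX1A, which is also on the cortical hem list. On the interneuron and ventral forebrain list, 5 rose and 2 fell of 15 tested. DLX5 and DLX6, homeobox genes of GABAergic neurons, were at 2.3 ± 0.223 CPM in the rescues and 0.6 ± 0.189 CPM in WT and at 2.65 ± 0.459 CPM in the rescues and 0.444 ± 0.133 CPM in WT (SD, n = 4 and 2). NPY, a neuropeptide, was at 1.41 ± 0.11 CPM in the rescues and 9.16 ± 0.0399 CPM in WT. NKX2-1, LHX8, GSX1 and GSX2, which define the ventral domains, were removed by the filter on low counts.

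**Figure D4:**
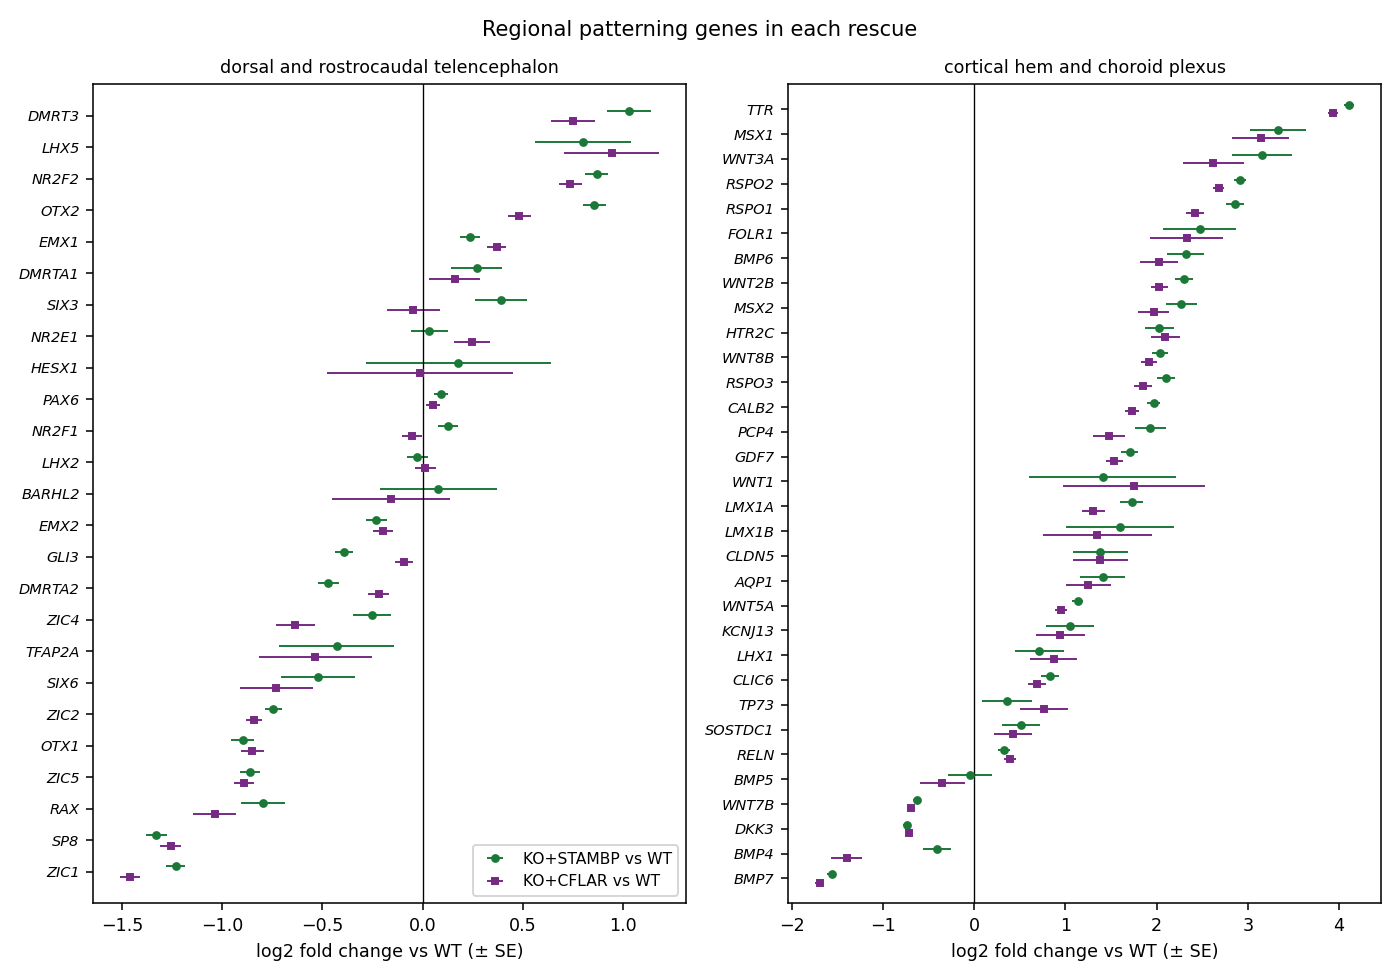
Log2 fold change against WT (± SE) of tested genes of the dorsal and rostrocaudal telencephalon list (left panel) and of the cortical hem and choroid plexus list (right panel), ordered by the mean of both rescues. Circles are KO+STAMBP and squares the libraries labelled KO+CFLAR, n = 2 each against 2 WT libraries. ZIC1 and SP8 lie at the low end and TTR, MSX1 and WNT3A at the high end.

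Pathways that act on the same cells were mixed. Of 33 WNT antagonists, receptors and targets, 9 rose and 15 fell. LEF1, a nuclear effector and target of WNT, was at 67.7 ± 2.97 CPM in the rescues and 30.3 ± 1.72 CPM in WT (SD, n = 4 and 2), log2 1.16 ± 0.06 (SE, adjusted p = 1.05e-09), and the targets AXIN2 and SP5, chosen after their values were seen, differed by 0.53 and 1.02. The receptors FZD8 and FZD3 were 1.84-fold and 1.83-fold lower, and the antagonist APCDD1 was 1.9-fold lower. Of 24 Notch genes, 9 rose and 7 fell. The receptors NOTCH1, NOTCH2 and NOTCH3 and the ligand DLL3 fell (-0.88, -0.99, -0.57 and -0.95), while the target HEY1 was at 81 ± 4.59 CPM in the rescues and 43.3 ± 0.77 CPM in WT, log2 0.90 ± 0.05 (SE, adjusted p = 1.52e-09). Of 28 BMP and TGF-beta genes, 12 rose and 6 fell. The BMP targets ID2 and ID4 and the effector SMAD9 rose by 0.67, 0.93 and 0.86, and LTBP1, which holds latent TGF-beta in the matrix, was 4.36-fold lower (log2 -2.12 ± 0.03, SE, adjusted p = 8.93e-15).

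The rule for the largest changes also took the following genes. TNFSF10, the death ligand TRAIL, had 2 and 0 counts in KO+STAMBP, 0 and 3 counts for the libraries labelled KO+CFLAR, and 66 and 68 in WT (adjusted p = 1.03e-06), too few in the rescues for a fold change, and the knockout was at 0.67 ± 0.201 CPM. ADM, the vasoactive peptide adrenomedullin, was at 0.671 and 0.428 CPM in KO+STAMBP, 0.419 and 0.408 CPM in the libraries labelled KO+CFLAR, and 19 and 19.6 CPM in WT, 39.9-fold lower, while the knockout was above WT at 103 ± 3.67 CPM. NPR1, a natriuretic peptide receptor, had 1 and 9 counts in KO+STAMBP, 11 and 10 counts for the libraries labelled KO+CFLAR, and 169 and 256 in WT. CBR3, a carbonyl reductase, had 0 and 2 counts in KO+STAMBP, 7 and 7 counts for the libraries labelled KO+CFLAR, and 50 and 62 in WT. SERPINA3, a protease inhibitor, had 6 and 7 counts in KO+STAMBP, 6 and 0 counts for the libraries labelled KO+CFLAR, and 70 and 65 in WT. These 3 genes were called lower in both rescues, with few counts there, and for CBR3 and SERPINA3 the knockout mean was above WT. Among abundant genes, CA12, a carbonic anhydrase, was at 57.5 and 59.2 CPM in KO+STAMBP, 58.9 and 58.6 CPM in the libraries labelled KO+CFLAR, and 447 and 461 CPM in WT (7.75-fold lower), with no overlap. RHOJ, a small GTPase, CRH, the corticotropin-releasing hormone, and ITGB5, an integrin subunit, were 8.92-fold, 8.07-fold and 7.55-fold lower. ST6GALNAC5, a sialyltransferase, ANOS1, the matrix protein anosmin-1, and SLC12A2, a chloride importer, were 7.38-fold, 7.17-fold and 5.31-fold lower.

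Among the largest rises, AMBN, an enamel matrix protein, was at 10.8 and 10.6 CPM in KO+STAMBP, 15.7 and 17 CPM in the libraries labelled KO+CFLAR, and 0.989 and 0.733 CPM in WT, 15.4-fold higher (log2 3.95 ± 0.21, SE, adjusted p = 2.5e-09). DHRS3, which reduces retinaldehyde, was 15.2-fold higher and was higher still in the knockout, at 20.2 ± 1.8 CPM. SULT1E1, the estrogen sulfotransferase, COL21A1, a collagen, and SLC17A8, a vesicular glutamate transporter, were 12.9-fold, 10.7-fold and 8.95-fold higher. PENK, the enkephalin precursor, and KCNQ5, a potassium channel, were 8.15-fold and 7.94-fold higher. The antisense RNA AFAP1-AS1 was 7.68-fold higher, but without a stated strand setting its reads cannot be told apart from those of AFAP1. Among abundant genes, TRPM3, a cation channel, was at 185 and 185 CPM in KO+STAMBP, 168 and 164 CPM in the libraries labelled KO+CFLAR, and 42.2 and 40.1 CPM in WT (4.26-fold higher), with no overlap. EPHA5, an ephrin receptor, DCT, a melanin enzyme, SLA, an adaptor of Src-like signalling, and CTTNBP2, a cortactin-binding protein of dendritic spines, were 3.48-fold, 3.26-fold, 3.09-fold and 2.98-fold higher. ZNF286B and ADAM1A had 0 counts in both WT libraries. ZNF286B had 92 and 140 counts in KO+STAMBP and 34 and 171 in the libraries labelled KO+CFLAR. ADAM1A had 100 and 92 counts in KO+STAMBP and 0 and 80 in the libraries labelled KO+CFLAR. Both share sequence with close copies and are uncertain.

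**Figure D5:**
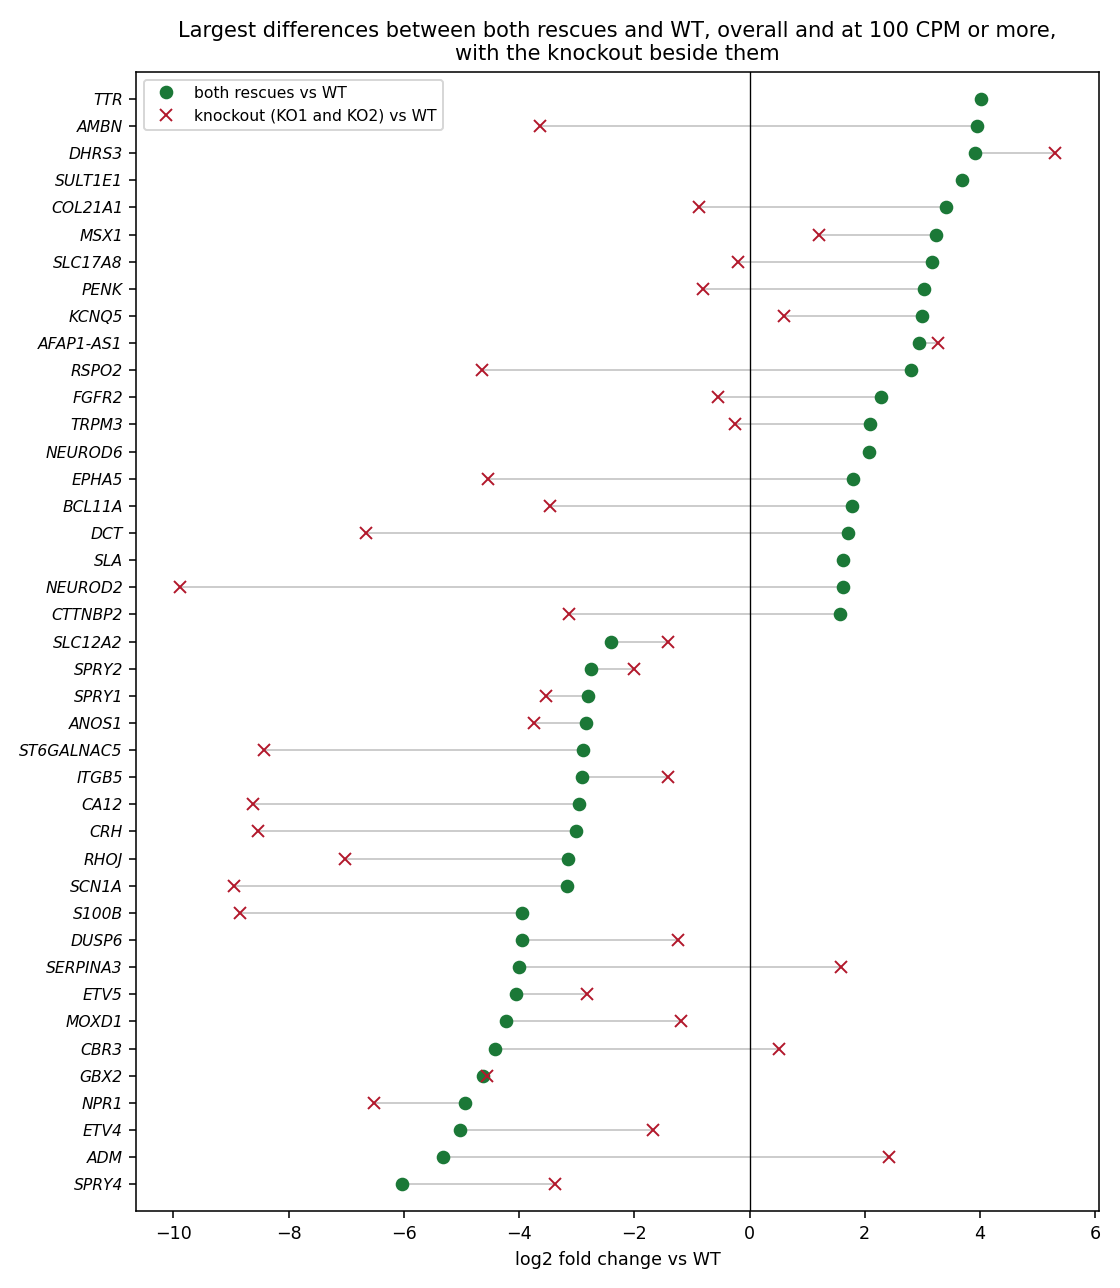
Log2 fold change against WT of 41 genes, ordered by size: the largest rises and falls between both rescues and WT among all eligible genes, and those among genes at 100 CPM or more. ZNF286B and ADAM1A, with 0 counts in WT, and TNFSF10, with at most 3 counts in each rescue group, are left out. Circles are both rescues (4 libraries) and crosses the knockout (4 libraries), each against the same 2 WT libraries, with no cross for 4 genes that had at most 3 counts in the knockout. SPRY4, ETV4 and DUSP6 lie further from WT in the rescues than in the knockout. Among the falls, ADM, SERPINA3 and CBR3 lie on opposite sides of WT in rescues and knockout. The rises with a cross do so too, except DHRS3, MSX1, KCNQ5 and AFAP1-AS1. The knockout differences of CBR3, SLC17A8 and PENK were not called.

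Markers of other cell types were low but not unchanged. On the list of epithelium and non-neural ectoderm, 13 of 25 members rose, and CDH1, E-cadherin, fell (1 member, median 1.02, or 0.85 with the 5 members at 3 counts or fewer in a group set to their bound). Their summed level was 136 to 159 CPM in the rescue libraries, 11863 to 12437 CPM in the knockout libraries and 99.1 and 99.4 CPM in WT. KRT8 was at 34.8 and 36.4 CPM in KO+STAMBP, 30.6 and 30.4 CPM in the libraries labelled KO+CFLAR, and 15.1 and 15.2 CPM in WT, against 2557 ± 87.4 CPM in the knockout, and was 2.17-fold higher than WT (log2 1.12 ± 0.05, SE, adjusted p = 4.88e-10). KRT18 and KRT17, also keratins, were 2.03-fold and 2.49-fold higher, and the tight junction gene CLDN6 2.44-fold higher. CD44, a cell surface receptor, and COL1A1, a collagen, were also above WT, at 9.62 ± 0.724 CPM in the rescues and 3.07 ± 0.678 CPM in WT and at 13.9 ± 1.57 CPM in the rescues and 6.64 ± 0.0871 CPM in WT (SD, n = 4 and 2), while the knockout held 186 ± 3.8 CPM and 1030.3 ± 25.4 CPM. Their part in the other differences was not tested. Of 23 neural crest and mesenchyme genes 5 rose and 10 fell, with FN1, fibronectin, at 143 ± 12.1 CPM in the rescues and 288 ± 7.88 CPM in WT and DCN, decorin, at 2.33 ± 0.258 CPM in the rescues and 19.1 ± 0.542 CPM in WT. Of 10 pluripotency genes tested 1 rose and 4 fell, and with only the compared groups in the fit 2 were called lower. Of 10 genes of mesoderm, endoderm, endothelium and microglia 2 rose and 4 fell. EOMES, given above as a factor of intermediate progenitors, is also on this list and was among those that rose. It held most of the list's summed level, which was 110 to 130 CPM in the rescue libraries. The number of the list called lower was 1 with only the compared groups in the fit or with at least 50 counts in at least 2 libraries.

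In most lists of stress and death pathways more members fell than rose. Of 25 p53 targets 3 rose and 13 fell (median -0.27), and of 44 genes of apoptosis and survival 7 rose and 17 fell (median -0.11). BOK and BCL2L11, which promote mitochondrial death, were 2.53-fold and 1.7-fold lower, and TNFRSF1A and RIPK1, of TNF receptor signalling, 1.8-fold and 1.65-fold lower. Of 22 NF-κB targets 1 rose and 8 fell, with the chemokine CCL2 at 2.58 and 2.19 CPM in KO+STAMBP, 1.86 and 1.45 CPM in the libraries labelled KO+CFLAR, and 12.6 and 13.5 CPM in WT. All 22 were higher in the knockout than in WT, and 7 had 3 counts or fewer in the rescues or in WT. Taken singly, KO+STAMBP had 5 called lower and the libraries labelled KO+CFLAR 7. Of 30 interferon response genes 2 rose and 16 fell (median -0.54). OAS3, an antiviral enzyme, was at 0.365 ± 0.178 CPM in the rescues and 3.46 ± 0.124 CPM in WT (SD, n = 4 and 2). Among 26 members for the unfolded protein response and the integrated stress response, 3 rose and 15 fell, with the chaperone HSPA5 1.43-fold lower. Of 25 hypoxia and glycolysis genes 9 rose and 10 fell. ADM, given above, is on that list. The glucose transporters SLC2A3 and SLC2A1 were 4.1-fold and 2.01-fold lower, and NDRG1, a hypoxia-induced gene, was 2.7-fold higher. Of 22 cholesterol synthesis genes 1 rose and 10 fell, with HMGCS1, an early enzyme of that path, 1.45-fold lower. Fewer members were lower when tested against a fold of 1.5, as among all 21063 genes (942 lower, against 4329 called). That test left 0 members of the unfolded protein and cholesterol lists, 3 of 25 p53 targets and 7 of 44 apoptosis genes lower. Of the others, 4 of 22 NF-κB, 6 of 30 interferon and 4 of 25 hypoxia genes were lower.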

How the data were processed

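RNA of 10 libraries was sequenced from an Illumina TruSeq preparation, per the labels' protocols. For 60898 rows the authors deposited raw whole-number counts. Tools listed in the submitters' processing notes are RSEM 1.2.4, fastp 0.20.0 and DESeq2, and builds listed there are GRCh38 and hg38. The annotation, the strand setting and whether RSEM's estimates were rounded are not given in the sources used here, so reads of overlapping, antisense and near-identical genes are not separable. Some 667 assembled loci have no Ensembl identifier and held 0.33% of counts.

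From these counts edgeR 4.0.16 in R 4.3.3 fitted a quasi-likelihood model with TMM factors and 1 mean for each of 5 groups over all 10 libraries (5 residual degrees of freedom), on the 21063 genes that filterByExpr kept. The contrast was the mean of the rescue groups, weighted equally, minus WT. Genes with a Benjamini-Hochberg adjusted p below 0.05 were called, and SE is the size of the log2 change over the root of F. Replicates had a chi-square of 1.95 to 3.59 per gene, above sampling noise, and none was counted as a duplicate. A count of 0 was read against a floor of 3 counts, which covers counting error only. Library totals ran from 16495116 to 20832700 counts. The members and lists were chosen with earlier results of these data known. The 12 largest rises and falls, and 10 each way at 100 CPM or more, were taken from eligible genes. Those were called in both rescues together and in each alone, with at least 2 CPM on the higher side. Up to 5 per list were also named by adjusted p, and these had to be called in both rescues together only. Tested members of the FGF and MAPK lists, STAMBP and CFLAR could be named whether called or not. Not all members of those lists are named in the text. All other genes named were picked with their values in view. A few members counted in lists are not reported here by name or drawn in figures. Positions come from GENCODE release 29 on GRCh38, and promoters from RefSeq on GRCh38.p14. In simulated data, in 5 draws, every group had the WT mean and 200 of the 21063 genes were changed in the rescues. On average 19137 genes passed the filter, and changed genes that it removed counted as missed. Recovery was 37%, 68.4% and 85.8% at 1.25, 2 and 4-fold, and 6.18% of calls were false, for both rescues against WT. Far fewer genes were changed than were called in the real comparison, whose recovery was not measured. DESeq2 1.42.0 was an alternative, with others given under sensitivity.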

Additional observations from a re-analysis of the deposited data

Results flagged for a closer look

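Of 233 named genes, 27 differed between the rescue groups themselves (edgeR, adjusted p = 0.000303 to 0.0481). Among all tested genes 1.09% did. Most named genes were picked from these same libraries by size of change, adjusted p or level, so the 27 cannot be read against that share. The values are log2 differences of the libraries labelled KO+CFLAR minus KO+STAMBP. Higher in the libraries labelled KO+CFLAR were MOXD1 (0.66), FZD8 (0.52), SFRP1 (0.41), NOTCH1 (0.36), LMO3 (0.34), CACNA1A (0.33), MKI67 (0.33), SLC1A3 (0.29), TOP2A (0.26), KIF21B (0.24), EOMES (0.23), PLXNA2 (0.20), TNC (0.19) and ID4 (0.17). They include radial glia genes that were low in both rescues (MOXD1, SLC1A3, TNC, NOTCH1) and the proliferation genes MKI67 and TOP2A. Lower in the libraries labelled KO+CFLAR were KRT17 (-0.70), RSPO1 (-0.44), GJA1 (-0.43), KRT18 (-0.39), IGF2 (-0.38), DUSP6 (-0.38), DCT (-0.33), CDKN1A (-0.30), MT-ND6 (-0.27), RSPO2 (-0.23), MEST (-0.22), FN1 (-0.21) and CALR (-0.20). They include DUSP6, the WNT enhancers RSPO1 and RSPO2 and the keratins KRT17 and KRT18. The number of genes called between the rescues depended on single libraries. It was 27 without KO+STAMBP replicate 1, 29 without KO+STAMBP replicate 2, 52 without KO+CFLAR replicate 1 and 313 without KO+CFLAR replicate 2, against 229 with all libraries.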

How the results depend on the processing

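Both rescues against WT gave 7206 called genes with DESeq2, 8142 with median-of-ratios factors, 8178 with library size alone, 8288 without the filter on low counts, 7933 with at least 50 counts in at least 2 libraries and 8421 with only the groups compared, against 8114. Without the libraries labelled KO+CFLAR, chosen after seeing the data, it gave 7373. Tested against a fold of 1.5, it gave 1628 genes (686 higher, 942 lower), KO+STAMBP 1478 (633 and 845), the libraries labelled KO+CFLAR 1426 (628 and 798), the rescues against each other 3 (3 and 0) and the knockout 10634 (4939 higher). Under that stricter test 15 radial glia genes and 11 cell cycle genes were lower, and 12 genes of neuron structure, 12 of synapse and 8 of epithelium were higher. The rescues differed from each other at 364 genes with DESeq2 (207 higher, 157 lower) and 780 without the filter (461 and 319). With each library left out in turn, both rescues against WT gave 6218 to 8295 genes (2784 to 3890 higher, 3414 to 4419 lower), KO+STAMBP 5530 to 7509, the libraries labelled KO+CFLAR 5466 to 7234, and the rescues against each other 27 to 313 (15 to 212 higher, 12 to 115 lower). In those fits the lists had 10 to 11 feedback inhibitors, 22 to 23 radial glia and 33 cell cycle genes lower, and 22 to 24 neurogenic, 22 to 23 neuron structure, 24 synapse, 23 to 24 hem and 11 to 14 epithelial genes higher. With the replicate number as a block, both rescues against WT gave 8121 genes and the rescues against each other 301; same-numbered libraries did not deviate together (r = -0.0453 to 0.0933), so the numbers are not taken as pairs. No called named gene changed sign where it was tested, and genes not called were not followed for sign. With library size alone the balance of calls turned, to 4236 higher and 3942 lower for both rescues. Between the rescues that setting gave 108 higher and 122 lower, against 132 and 97. Lists of low-count genes lost calls, and for the pluripotency and mesoderm lists the losses are given with them. The astrocyte and oligodendrocyte list had 3 genes lower with at least 50 counts in at least 2 libraries, against 5. On the interneuron list 1 gene was lower, against 2, with DESeq2, with library size alone or without the libraries labelled KO+CFLAR. Of 209 called named genes, 153 stayed called under every alternative and 203 when the single left-out libraries and the fold test are set aside; ADAM1A was not called with DESeq2 (adjusted p = 0.119) or without KO+CFLAR replicate 2. With 2 libraries a group, small changes are the least certain: in simulated data with 200 changed genes, 37% of 1.25-fold changes were recovered.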

Other observations

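Glial lineage genes were mixed. Of 18 tested, 6 rose and 5 fell. S100B, a calcium-binding protein of astrocytes, was at 1.96 and 1.82 CPM in KO+STAMBP, 2.1 and 2.09 CPM in the libraries labelled KO+CFLAR, and 31.7 and 30.2 CPM in WT, 15.5-fold lower than WT (log2 -3.95 ± 0.16, SE, adjusted p = 9.82e-11). NFIA and NFIB, transcription factors that begin the astrocyte programme and also act in cortical neurons, were at 316 ± 5.8 CPM in the rescues and 183 ± 5.13 CPM in WT and at 542 ± 29.6 CPM in the rescues and 276 ± 8.09 CPM in WT (SD, n = 4 and 2). GJA1, the gap junction protein connexin 43, was 2.28-fold higher.

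Of 17 imprinted genes tested, 3 rose and 10 fell (median -0.57). PEG10, a retrotransposon-derived growth gene, was at 678 and 677 CPM in KO+STAMBP, 758 and 699 CPM in the libraries labelled KO+CFLAR, and 1507 and 1442 CPM in WT, 2.1-fold lower than WT. GRB10, a growth factor receptor adaptor, and MEST were 2.65-fold and 2.5-fold lower. IGF2 was at 30.7 ± 4.78 CPM in the rescues and 60.9 ± 0.336 CPM in WT (SD, n = 4 and 2), against 4721 ± 202 CPM in the knockout. Axon guidance genes divided evenly, with 14 higher and 15 lower of 34, among them SEMA3C, a secreted semaphorin, 4.28-fold higher and EFNB1, an ephrin, 2.03-fold lower. Of 33 genes of the ESCRT and endosome list, the machinery in which STAMBP acts, 7 rose and 11 fell, with CHMP4B, an ESCRT-III subunit, 1.72-fold lower. Of 13 mitochondrially encoded genes 10 rose and 0 fell, all within a log2 difference of 0.24, with MT-ND4 at 0.19. Taken singly, KO+STAMBP had 11 called higher and the libraries labelled KO+CFLAR 2, and tested against a fold of 1.5 there were 0. That test left 4 imprinted genes lower.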
